A study of Mus musculus with 12 samples.

Results

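Glycerolipid synthesis enzymes build phosphatidate, diacylglycerol and triglyceride from glycerol 3-phosphate or monoacylglycerol, and 9 genes for them were followed in mouse liver: Gpam, Agpat2, Agpat3, Lpin1, Lpin2, Lpin3, Mogat1, Dgat1 and Dgat2. The genes were given as a list, and each was represented by the probe set with that single gene symbol and the highest mean over all arrays, which gave 9 of 18193 named genes. All 9 passed the filter on low values that left 13788 genes for testing. Livers came from 12 male C57BL6J mice at 30 weeks of age, with 1 array per mouse. The labels name no engineered allele. Control mice received no antibiotic, and treated mice drank penicillin at 6.7 mg/L in their water. All mice began on chow with 13.5% of its energy as fat, and 6 of them changed at 17 weeks of age to a feed with 45%, named high-fat here. Each combination of treatment and feed had 3 mice, and a single mouse is named by its group and replicate number, as in control chow 3. The series title places the study in the lasting metabolic effects of altering gut microbes early in life.

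In the main route to triglyceride, a glycerol-3-phosphate acyltransferase adds the first fatty acid, an acylglycerol-phosphate acyltransferase adds the next and so makes phosphatidate, a lipin removes the phosphate to give diacylglycerol, and a diacylglycerol acyltransferase adds the last fatty acid. A monoacylglycerol acyltransferase such as Mogat1 reaches diacylglycerol by a shorter route. Hepatocytes use the product for lipid droplets and for secreted lipoproteins, and the same intermediates feed phospholipid synthesis. Lpin1 is known besides as a nuclear coactivator of fatty acid oxidation genes and as a gene of the fasting response, and Mogat1 is known as a gene that is low in lean mouse liver and high in fatty liver.

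Lpin1, Lpin2, Gpam and Mogat1 were the members that rose on high-fat diet in at least 1 comparison between groups, so the sequence ahead of their start sites is shown. Each line gives the 250 bases before an annotated start, 5′ to 3′ on the gene's own strand, from RefSeq on GRCm38.p6. The windows are chr1:78510810-78511059 (plus strand) for Mogat1, chr12:16610967-16611216 (minus strand) for Lpin1, chr17:71183282-71183531 (plus strand) for Lpin2, and chr19:55099478-55099727 and chr19:55127239-55127488 (both minus strand) for 2 starts of Gpam. Of the 3 annotated starts of Lpin2, the one with the lowest coordinate is shown. Capitals mark matches to the motifs described after the sequences.
Mogat1: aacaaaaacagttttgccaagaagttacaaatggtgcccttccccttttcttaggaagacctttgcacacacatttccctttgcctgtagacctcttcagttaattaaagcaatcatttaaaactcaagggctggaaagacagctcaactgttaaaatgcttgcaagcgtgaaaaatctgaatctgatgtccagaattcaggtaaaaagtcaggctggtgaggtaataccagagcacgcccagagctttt
Lpin1: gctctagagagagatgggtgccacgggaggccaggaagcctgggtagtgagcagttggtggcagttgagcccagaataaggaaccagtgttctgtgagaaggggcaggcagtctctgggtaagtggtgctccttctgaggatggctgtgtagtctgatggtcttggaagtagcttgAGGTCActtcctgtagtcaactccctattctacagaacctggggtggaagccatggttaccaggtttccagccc
Lpin2: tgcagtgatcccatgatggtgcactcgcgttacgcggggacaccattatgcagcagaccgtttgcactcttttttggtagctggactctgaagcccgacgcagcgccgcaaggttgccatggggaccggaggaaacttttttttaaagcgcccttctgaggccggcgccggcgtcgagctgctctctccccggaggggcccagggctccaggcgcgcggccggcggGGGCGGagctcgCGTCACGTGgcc
Gpam, first window: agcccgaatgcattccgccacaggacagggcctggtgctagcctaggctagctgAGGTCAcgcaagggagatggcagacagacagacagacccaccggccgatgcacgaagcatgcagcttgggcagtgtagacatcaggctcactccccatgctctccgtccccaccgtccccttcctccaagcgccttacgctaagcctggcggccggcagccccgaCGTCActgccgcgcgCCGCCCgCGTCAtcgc
Gpam, other window: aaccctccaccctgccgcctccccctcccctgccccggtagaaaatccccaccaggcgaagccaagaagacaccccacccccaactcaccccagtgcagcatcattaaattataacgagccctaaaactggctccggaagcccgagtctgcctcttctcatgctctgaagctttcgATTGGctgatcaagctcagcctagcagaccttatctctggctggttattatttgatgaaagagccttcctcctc
The letters searched, on both strands, were the E-box CACGTG, the sterol regulatory element TCACNCCAC, the nuclear receptor core AGGTCA and its direct repeat with 1 base between the copies, the CCAAT box CCAAT, the TATA box TATAAA, the GC box GGGCGG, the cyclic AMP response element TGACGTCA and its core TGACG, and the glucocorticoid response element, AGAACA and TGTTCT with 3 bases between them. The core AGGTCA lies within its direct repeat and TGACG within TGACGTCA, and the E-box of Lpin2 overlaps a TGACG core. Among 32851 promoter windows of the same length, 6.02% held the E-box, 14% AGGTCA, 33.8% CCAAT, 12.4% TATAAA, 32.7% GGGCGG, 17.8% TGACG, 1.55% TGACGTCA, 1.05% TCACNCCAC, 0.0335% the direct repeat and 0.00913% the glucocorticoid response element. The Mogat1 window held none of these letters. The Lpin1 window held AGGTCA from 74 to 69 bases before the start. The Lpin2 window shown held the E-box from 9 to 4 bases before the start and a GC box from 24 to 19. The Lpin2 windows not shown held no E-box. In order of coordinate, window 2 held a GC box from 79 to 74 bases before its start, and window 3 held 3 CCAAT boxes. Which start the liver uses was not examined. The first Gpam window held 1 AGGTCA, 1 GC box and 2 TGACG cores, and the other held 1 CCAAT box. Of the 9 genes, 7 had promoter entries, 11 in all.

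The 9 members lay at different strengths of signal, which cannot be compared between probe sets. The arrays matched their tissue label, with the mean of 9 hepatocyte markers, among them Alb, Apoa1 and Cyp2e1, between 13.80 and 14.01 on the log2 scale in all 12 livers. The signal of the 18S ribosomal control probe sets was 11.8 in penicillin chow 2, penicillin chow 3 and penicillin high-fat 2, and between 12.7 and 13.9 in the other arrays. Circadian phase was summarised as a clock score, in which 4 genes of the Bmal1 side were subtracted from 8 of the Per side. It was -1.74 in the first penicillin high-fat mouse and between -0.80 and 0.84 in the others. Several members, such as Lpin1, Agpat2 and Dgat2, are also adipocyte genes. Of 6 measured adipocyte markers, Adipoq and Lep stayed between 3.13 and 3.58 and between 4.03 and 4.46, below the filter level of 5, on every array. The other 4 passed the filter, with Fabp4 between 7.93 and 9.72, Lipe between 6.32 and 7.19, Retn between 6.12 and 6.46 and Adig between 5.18 and 5.67. Fabp4 and Lipe changed with the diet, as given below. A part of fat tissue in the members' differences was not tested. Differences below are in log2 units, with the standard error of the fit and n = 3 mice per group, and adjusted p-values come from limma with Benjamini-Hochberg adjustment over all genes tested. A gene is called at an adjusted p under 0.05. The livers are bulk tissue, so fewer cells of a type and less RNA per cell cannot be told apart.

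**Figure D1:**
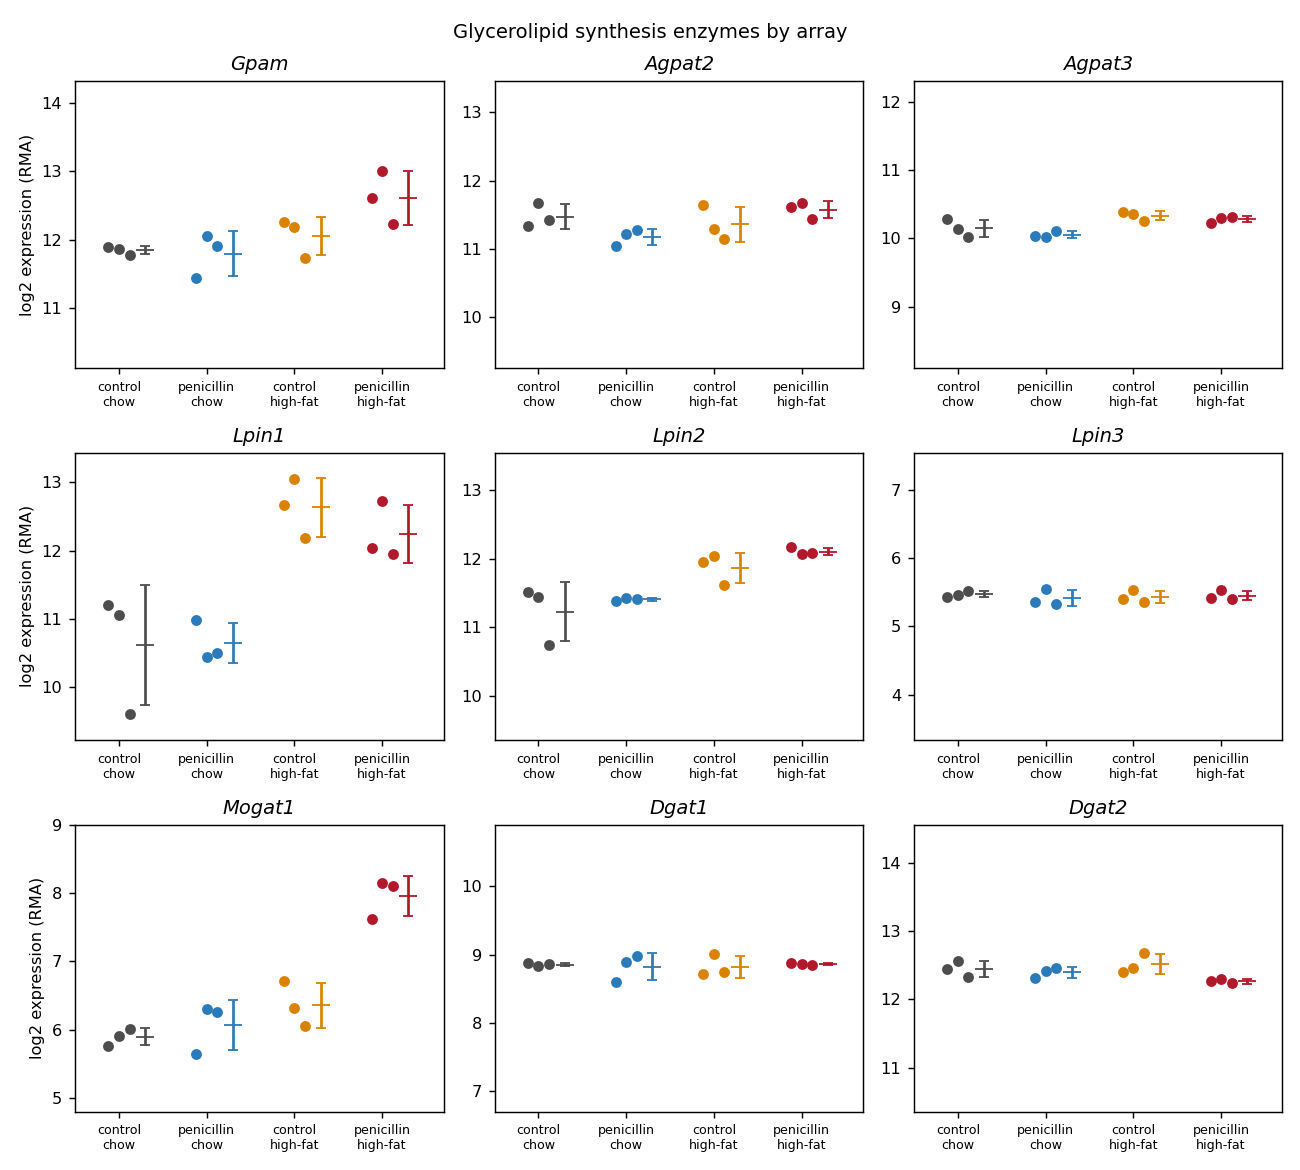
Log2 expression (RMA, y axis) of the 9 glycerolipid synthesis enzymes on each of 12 arrays by group (x axis), with the group mean and SD (n = 3) beside the points; every panel spans the same number of log2 units. Lpin1 and Lpin2 lie higher in all 6 high-fat mice than in all 6 chow mice, and Mogat1 is highest in the 3 penicillin high-fat mice at 7.63 to 8.15.

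High-fat feeding in control mice raised 1 of the 9 members, Lpin1, by 2.01 ± 0.38 (4.02-fold, adjusted p = 0.0383) and lowered 0. Over all genes tested, 0.899% were called in this comparison, 0.653% higher and 0.247% lower. In 3 members (Mogat1, Lpin1 and Lpin2) all high-fat mice lay above all chow mice, and in 0 below, where 22.8% of all genes did not overlap, 12.4% higher and 10.4% lower. The median difference of the 9 members was 0.18, against -0.00 for all genes.

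In penicillin mice the diet raised 4 members, namely Lpin1, Lpin2, Gpam and Mogat1, and lowered 0, where 8.32% of all genes were called, 6.43% higher and 1.89% lower. High-fat mice lay entirely above chow mice for 6 members and below for 1, Dgat2, where 28% of all genes did not overlap, 15.6% higher and 12.3% lower. The median difference was 0.40, against -0.01 for all genes. Averaged over both treatments the diet raised 5 members, the same 4 and Agpat3, where 14.5% of all genes were called, 9.63% higher and 4.85% lower. The 6 high-fat mice lay above the 6 chow mice for 2 members, Lpin1 and Lpin2, where 6.49% of all genes did not overlap, 4.35% higher and 2.14% lower.

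Penicillin raised 1 member on high-fat diet, Mogat1, and lowered 0, where 0.341% of all genes were called, 0.254% higher and 0.087% lower. Penicillin mice lay entirely above controls for 2 members (Mogat1 and Lpin2) and below for 1 (Dgat2), where 17.3% of all genes did not overlap, 9.5% higher and 7.85% lower. On chow limma called 0 of 9 members, where 0.00725% of all genes were called, and 1 member, Agpat2, had an unadjusted p under 0.05, as had 7.62% of all genes. Agpat2 was also the 1 member whose groups did not overlap on chow, against 11.8% of all genes, 4.79% higher and 7.04% lower. The interaction of penicillin and diet called 0 of 9, where 0.0435% of all genes were called, 0.0363% with a positive sign and 0.00725% with a negative sign, and 2 members (Mogat1 and Agpat2) had an unadjusted p under 0.05, as had 6.11% of all genes. Each group enters more than 1 of these comparisons, so they are not independent of each other.

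**Figure D2:**
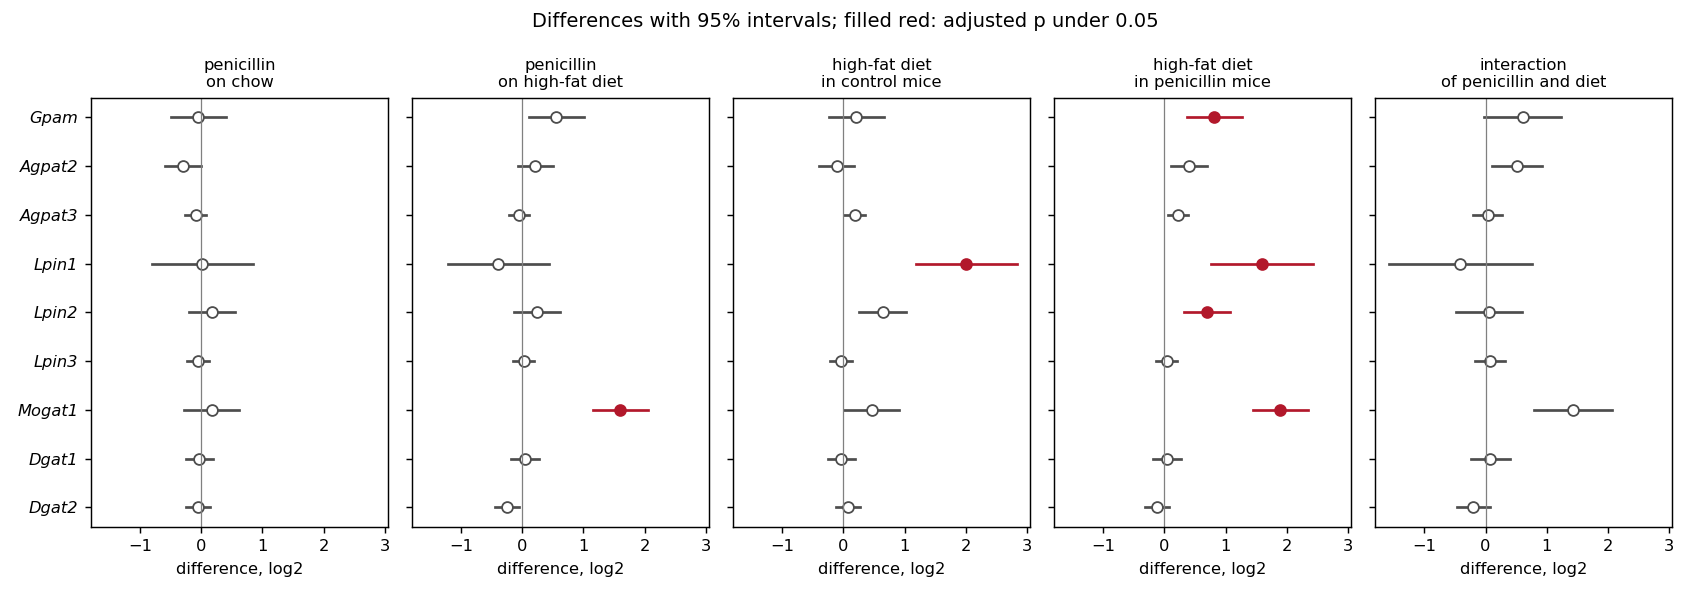
Difference in log2 expression (x axis) with its 95% interval for each of the 9 enzymes (y axis) in 5 comparisons; filled red symbols have an adjusted p under 0.05 over 13788 genes. Lpin1 stands at 2.01 and 1.60 for the diet in control and penicillin mice, Mogat1 at 1.60 for penicillin on high-fat diet and 1.89 for the diet in penicillin mice, and no member is called for penicillin on chow or for the interaction.

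The first acyltransferase of the route, mitochondrial Gpam, stood at 11.90, 11.87 and 11.78 in control chow mice and at 11.43, 12.05 and 11.91 in penicillin chow mice. On high-fat diet it stood at 12.25, 12.18 and 11.74 in control mice and at 12.61, 13.01 and 12.22 in penicillin mice. The penicillin high-fat mice lay above all penicillin chow mice, whereas the control high-fat mice overlapped both chow groups. Gpam rose by 0.82 ± 0.21 with the diet in penicillin mice (1.76-fold, adjusted p = 0.0309). In control mice the difference was 0.21 ± 0.21 (adjusted p = 0.683), with a 95% interval from -0.24 to 0.66. Penicillin against control on high-fat diet gave 0.56 ± 0.21, which did not pass (adjusted p = 0.367), and the interaction of 0.61 ± 0.29 did not pass either (adjusted p = 0.835). The diet effect on Gpam is therefore not shown to differ between control and penicillin mice. Its call in penicillin mice was lost without penicillin chow 1 or 3 or penicillin high-fat 1 or 2, with differences from 0.62 to 0.87 and adjusted p from 0.0596 to 0.0933. Averaged over treatments Gpam rose by 0.51 ± 0.15 (adjusted p = 0.0358), a call that held in 3 of 12 fits with 1 array removed, those without penicillin chow 2, control high-fat 3 or penicillin high-fat 3, and otherwise had differences from 0.41 to 0.54 and adjusted p from 0.0517 to 0.0864. The other, dimmer probe set of Gpam stood at 0.40 ± 0.15 for the diet in penicillin mice and at 0.49 ± 0.15 for penicillin on high-fat diet.

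Agpat2 and Agpat3 encode acyltransferases of the next step, at the endoplasmic reticulum, and Agpat2 is the one whose loss causes lipodystrophy. Agpat2 stood at 11.33, 11.67 and 11.42 in control chow mice and at 11.04, 11.21 and 11.27 in penicillin chow mice, which were all lower than the controls. In high-fat mice it stood at 11.64, 11.30 and 11.14 without penicillin and at 11.61, 11.67 and 11.44 with it. The penicillin difference on chow was -0.30 ± 0.13 (adjusted p = 0.648). On high-fat diet it was 0.22 ± 0.13 (adjusted p = 0.649), and the interaction of 0.51 ± 0.19 did not pass (adjusted p = 0.724). With the diet in penicillin mice Agpat2 stood at 0.40 ± 0.13 (adjusted p = 0.0881), and in control mice at -0.11 ± 0.13. Agpat2 had a single probe set, so no other could be set beside it.

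Agpat3 changed little in absolute terms. It stood at 10.28, 10.14 and 10.02 in control chow mice, at 10.04, 10.02 and 10.11 in penicillin chow mice, at 10.38, 10.36 and 10.25 in control high-fat mice and at 10.23, 10.30 and 10.31 in penicillin high-fat mice. The diet differences were 0.18 ± 0.08 in control mice (adjusted p = 0.289) and 0.22 ± 0.08 in penicillin mice (adjusted p = 0.103). Averaged over treatments, Agpat3 rose by 0.20 ± 0.05 (1.15-fold, adjusted p = 0.0297). The 3 other probe sets of Agpat3 stood at 0.28, 0.39 and 0.34 for this average. The averaged call held in 5 of the 12 fits with 1 array removed and was lost without control chow 2 or 3, penicillin chow 2, either of the first control high-fat mice (1 or 2), or penicillin high-fat 2 or 3, with differences from 0.17 to 0.20 and adjusted p from 0.0537 to 0.0693.

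The lipins, which turn phosphatidate into diacylglycerol, held the largest diet difference among the members in control mice. Lpin1 stood at 11.20, 11.05 and 9.61 in control chow mice and at 10.98, 10.44 and 10.51 in penicillin chow mice. It stood at 12.67, 13.04 and 12.18 in control high-fat mice and at 12.04, 12.73 and 11.95 in penicillin high-fat mice. The 6 high-fat mice all lay above the 6 chow mice, without overlap. Control chow 3 was far below its group, and the SD of control chow was 0.88 (n = 3), against 0.29 to 0.43 in the other groups. In penicillin mice Lpin1 rose by 1.60 ± 0.38 with the diet (3.02-fold, adjusted p = 0.0243), and averaged over treatments it rose by 1.80 ± 0.27 (3.49-fold, adjusted p = 0.00173). Penicillin gave 0.02 ± 0.38 on chow and -0.39 ± 0.38 on high-fat diet, with a 95% interval from -1.22 to 0.43 for the latter, and the interaction of -0.41 ± 0.54 did not pass (adjusted p = 0.956). Without control chow 3 the penicillin difference on chow was -0.48 (adjusted p = 0.662) and the interaction 0.09 (adjusted p = 0.986), so neither has a settled direction. A further probe set of Lpin1, of nearly the same mean, gave 1.98 ± 0.36 in control mice and 1.53 ± 0.36 in penicillin mice for the diet.

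The separate calls of Lpin1 depended on which arrays were in the fit, and its average did not. In control mice the call was lost without control chow 1 or 2, penicillin chow 3, either of the first control high-fat mice (1 or 2) or penicillin high-fat 3, with differences from 1.80 to 2.30 and adjusted p from 0.0544 to 0.154. Penicillin chow 3 and penicillin high-fat 3 are outside this comparison, and without either the difference stayed at 2.01. Without control chow 3 the difference still passed (adjusted p = 0.0396). In penicillin mice the call was lost without penicillin chow 2 or 3 or penicillin high-fat 1 or 2, with differences from 1.35 to 1.69, and without all 3 arrays of low 18S signal it was 1.02 (adjusted p = 0.336). The average over treatments passed whichever array was removed, from 1.55 to 1.95.

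Lpin2, a lipin of liver and macrophages, stood at 11.51, 11.44 and 10.73 in control chow mice and at 11.38, 11.43 and 11.41 in penicillin chow mice. It stood at 11.95, 12.04 and 11.62 in control high-fat mice and at 12.17, 12.07 and 12.08 in penicillin high-fat mice. As for Lpin1, control chow 3 was the lowest liver and the diets did not overlap. Lpin2 rose by 0.70 ± 0.17 with the diet in penicillin mice (1.62-fold, adjusted p = 0.0293) and by 0.67 ± 0.12 averaged over treatments (adjusted p = 0.00493). In control mice it stood at 0.64 ± 0.17 (adjusted p = 0.106), and at 0.39 without control chow 3 (adjusted p = 0.145). The interaction was 0.06 ± 0.25, with a 95% interval from -0.48 to 0.59. The call in penicillin mice was lost without any 1 of the penicillin chow or penicillin high-fat mice, with differences from 0.67 to 0.72 and adjusted p from 0.0614 to 0.103, while the average passed whichever array was removed. The 3 other probe sets of Lpin2 gave averaged diet differences of 0.72, 0.66 and 0.43.

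Lpin3, the third member of the lipin family, was dim and flat. Its 12 values lay between 5.33 and 5.55, close to the filter level, and its diet difference averaged over treatments was -0.00 ± 0.06, with a 95% interval from -0.12 to 0.12. Differences near the filter level are compressed by background on these arrays.

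Lpin1, Lpin2 and Agpat3 varied together from mouse to mouse inside the groups. With each group's mean removed, the correlation over the 12 arrays was 0.83 for Lpin1 with Lpin2, 0.71 for Lpin1 with Agpat3 and 0.78 for Lpin2 with Agpat3. These are descriptions of arrays that share their normalization. Control chow 3 was below its group mean by all 3 genes, and its clock score of -0.62 stood against 0.69 and 0.83 in control chow 1 and 2. In the control high-fat group replicate 3, with a clock score of 0.84, was below its group mean by all 3 genes. Replicate 1, at -0.80, was above it, by 0.04 for Lpin1 and 0.08 for Lpin2. Replicate 2, with a clock score of 0.06, was further above it, by 0.41 and 0.17 for the same genes. A relation of the 3 genes to the clock score within groups was not tested. Without control chow 3 the correlations were 0.48, 0.39 and 0.53 over 11 arrays, so they rest in good part on that mouse. Gpam with Mogat1 correlated at 0.58 within groups, or 0.61 without control chow 3. In a fit with the clock score as a covariate the averaged diet effects on Lpin1 and Lpin2 passed, whereas those on Gpam (0.50, adjusted p = 0.0978) and Agpat3 (0.23, adjusted p = 0.0518) did not.

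**Figure D3:**
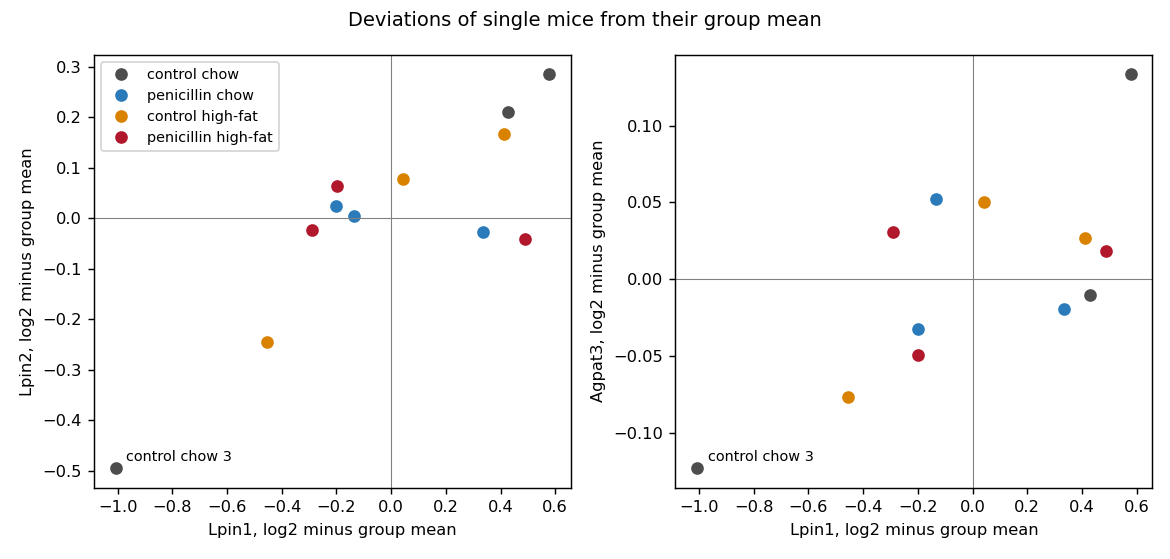
Deviation of each of 12 mice from its group mean in log2 units, for Lpin1 (x axes) against Lpin2 (left) and Agpat3 (right), coloured by group. Control chow 3 lies at the lower left of both panels, at -1.01 for Lpin1, -0.49 for Lpin2 and -0.12 for Agpat3.

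Mogat1, the monoacylglycerol acyltransferase, was the 1 member that penicillin raised. It stood at 5.77, 5.91 and 6.01 in control chow mice, at 5.65, 6.31 and 6.25 in penicillin chow mice and at 6.71, 6.31 and 6.05 in control high-fat mice. In penicillin high-fat mice it stood at 7.63, 8.15 and 8.11. These 3 livers lay above the other 9, and the remaining groups overlapped in part, with all control high-fat mice above all control chow mice. In order of their means the groups were control chow at 5.90 ± 0.12, penicillin chow at 6.07 ± 0.36, control high-fat at 6.36 ± 0.33 and penicillin high-fat at 7.96 ± 0.29 (SD, n = 3). Control chow and penicillin chow did not differ past the threshold, and penicillin chow and control high-fat, which differ in both factors and were not tested, overlapped.

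The diet raised Mogat1 by 1.89 ± 0.21 in penicillin mice (3.71-fold, adjusted p = 0.000505), against 0.46 ± 0.21 in control mice (adjusted p = 0.318), where the difference ran from 0.29 without control high-fat 1 to 0.61 without control high-fat 3. Penicillin raised it by 1.60 ± 0.21 on high-fat diet (3.04-fold, adjusted p = 0.00728), against 0.17 ± 0.21 on chow, where the 95% interval ran from -0.27 to 0.62. The interaction, which asks whether these effects differ, was 1.43 ± 0.29 with a 95% interval from 0.79 to 2.07 and missed the threshold over all genes (adjusted p = 0.190). Both calls of Mogat1 share the 3 penicillin high-fat mice, and they held whichever array was removed, from 1.45 to 1.78 for penicillin on high-fat diet and from 1.68 to 2.06 for the diet in penicillin mice. Mogat1 had 1 probe set and no other could be set beside it.

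The diacylglycerol acyltransferases, which add the last fatty acid, did not pass in any of the 6 comparisons. Dgat1 had group means of 8.86 ± 0.02, 8.83 ± 0.20, 8.82 ± 0.16 and 8.87 ± 0.02 (SD, n = 3) in the order of the groups above, chow first and controls before penicillin, and its diet difference averaged over treatments was 0.00 ± 0.07, with a 95% interval from -0.16 to 0.16. Dgat2 stood at 12.44, 12.57 and 12.33 in control chow mice, at 12.31, 12.42 and 12.45 in penicillin chow mice, at 12.40, 12.46 and 12.68 in control high-fat mice and at 12.26, 12.30 and 12.23 in penicillin high-fat mice. The penicillin high-fat mice were thus the lowest group, entirely below control high-fat. The difference was -0.25 ± 0.09 (adjusted p = 0.350), and the other probe set of Dgat2 gave -0.32 ± 0.11. Within the same livers Mogat1 was at its highest, and over the 12 arrays the correlation of Dgat2 with Mogat1 was -0.60, falling to -0.18 once group means were removed.

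**Figure D4:**
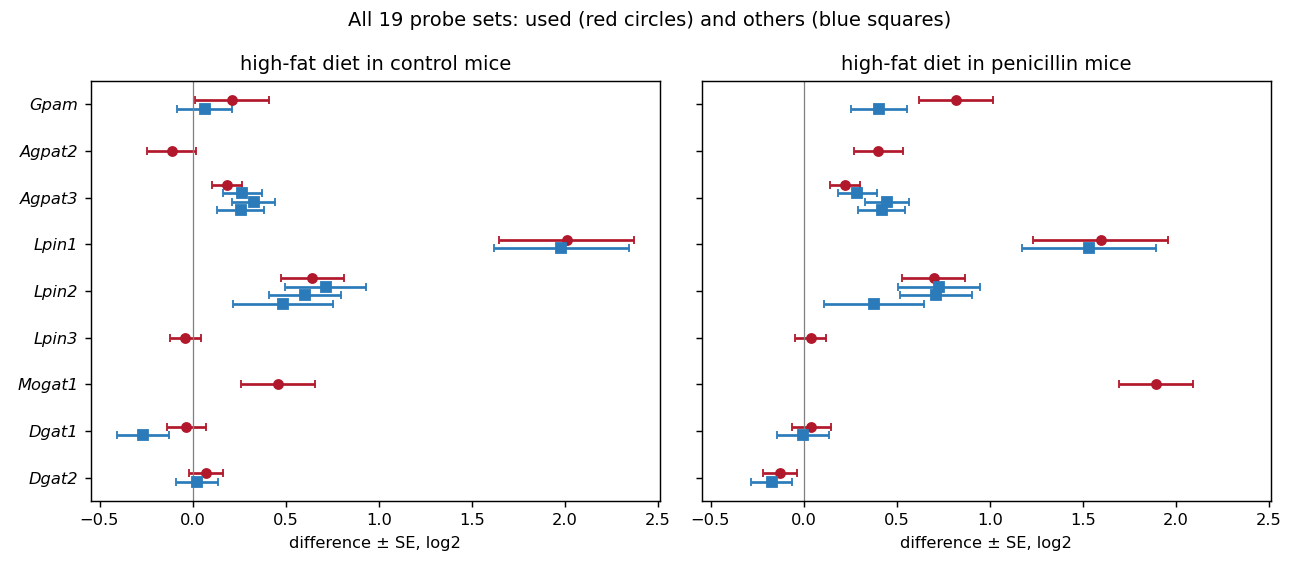
Diet difference in log2 units with its SE (x axes) for all 19 probe sets of the 9 enzymes (y axis), in control mice on the left and penicillin mice on the right; red circles are the probe sets used, blue squares the others. The other probe sets share the sign of the one used in 10 of 10 cases in control mice and in 9 of 10 in penicillin mice.

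Of the 9 members, 6 had more than 1 probe set, with 10 others in all. For the diet these had the same sign as the probe set used in 10 of 10 cases in control mice and in 9 of 10 in penicillin mice, with a dim probe set of Dgat1 at -0.00 as the exception. For penicillin the signs matched in 8 of 10 cases on chow and in 7 of 10 on high-fat diet, where most differences were small.

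A wider list of 59 genes of the pathway was read from the same fit, of which 46 were tested. In control mice the diet raised 1 of them, Crls1, and lowered 0. In penicillin mice it raised 5 and lowered 3, and averaged over treatments it raised 6 and lowered 4, beside the shares of all genes given above. Of the 46, limma called 0 for penicillin on either diet, with 6 on chow and 13 on high-fat diet at an unadjusted p under 0.05, where 7.62% and 10.1% of all genes had one. The median diet difference of the list was 0.04 in penicillin mice and 0.01 averaged over treatments, close to the -0.01 of all genes for both, against 0.40 and 0.20 for the 9 members. Members and lists were chosen with earlier results of these data known, so this contrast of medians is only a description.

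Among the other acyltransferases of the first steps, Gpat3 rose by 1.11 ± 0.31 (adjusted p = 0.05, just under the threshold) and Gpat2 by 0.64 ± 0.16 (adjusted p = 0.0330) with the diet in penicillin mice, and 0 of the other 5 in that list passed. Gpat4 stood at 0.13 ± 0.12 and Agpat1 at -0.21 ± 0.11. The gene for the lipin phosphatase subunit Cnep1r1 rose by 0.15 ± 0.05 averaged over treatments (adjusted p = 0.0498), and Mogat2, an intestinal relative of Mogat1, fell by 0.29 ± 0.07 (adjusted p = 0.0199). None of the 4 tested genes of glycerol 3-phosphate supply and none of the 3 tested acyl-CoA synthetases passed in any of the 6 comparisons. The glycerol kinase gene Gk and the acyl-CoA synthetase gene Acsl1 had no probe set with their single symbol. Aqp7 and Acsl6 did not pass the filter, so these lists say nothing about any of the 4.

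In the CDP-diacylglycerol branch, which leaves from phosphatidate, Crls1, the cardiolipin synthase, rose by 0.43 ± 0.09 in control mice (adjusted p = 0.0449). In penicillin mice it rose by 0.48 ± 0.09 (adjusted p = 0.00658), and 0 of the other 6 genes of that branch passed. In the branch to phosphatidylcholine and phosphatidylethanolamine, the choline kinase Chkb rose by 0.50 ± 0.13 and the phosphotransferase Cept1 by 0.37 ± 0.10 in penicillin mice, while Pcyt1b, a dim gene for an enzyme that activates phosphocholine, fell by 0.39 ± 0.08, with adjusted p from 0.0170 to 0.0423. The diacylglycerol kinases return diacylglycerol to phosphatidate. Of 6 tested, Dgka fell by 0.37 ± 0.10 and Dgkd by 0.33 ± 0.08 in penicillin mice (adjusted p = 0.0478 and 0.0316), and averaged over treatments Dgkd fell by 0.25 ± 0.06 and Dgkq by 0.30 ± 0.07. In penicillin mice the count of 8 called genes lay between 1 and 7 in the 12 fits with 1 array removed, the lowest of these when penicillin high-fat 1 or 3 was absent and 3 when penicillin chow 3 was absent.

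**Figure D5:**
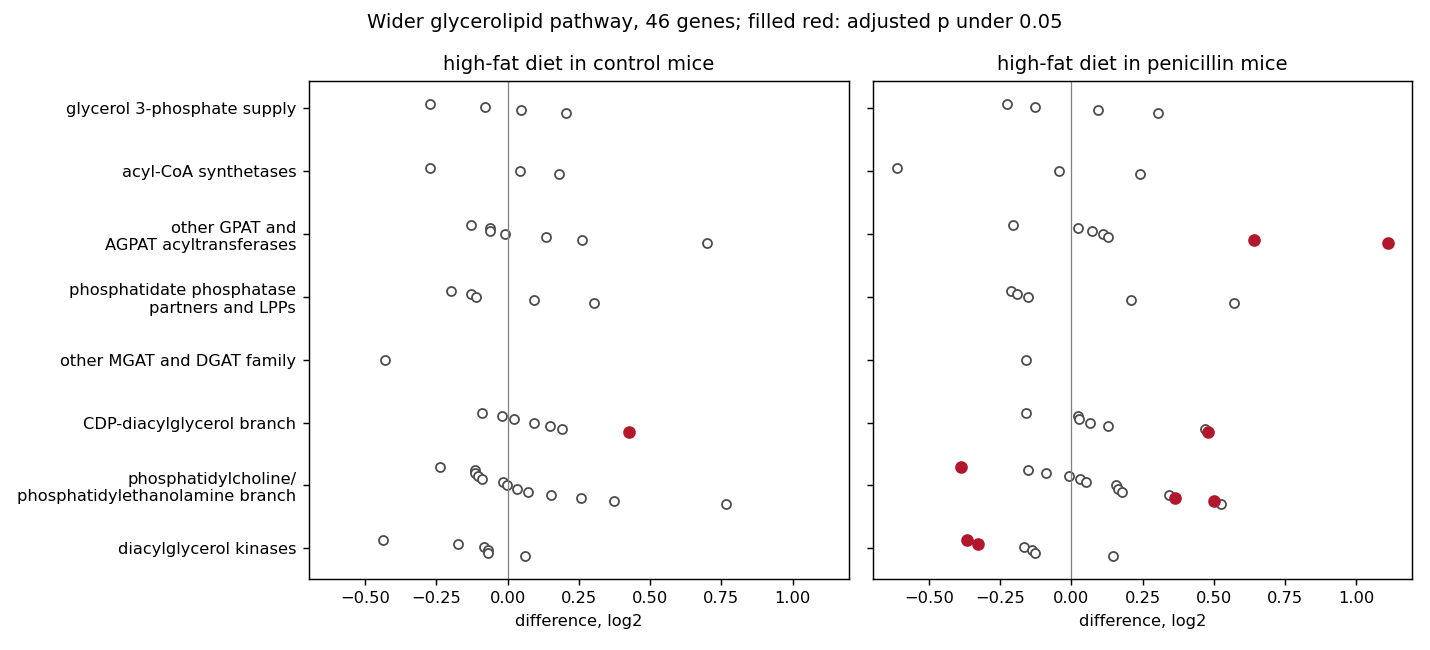
Diet difference in log2 units (x axes) for 46 tested genes of the wider pathway, grouped by step or branch (y axis), in control mice on the left and penicillin mice on the right; filled red symbols have an adjusted p under 0.05. In control mice 1 gene is called, Crls1 at 0.43, and in penicillin mice 5 are called higher and 3 lower.

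Markers of other cells moved with the diet as well. In penicillin mice on high-fat diet 6 of 8 macrophage and Kupffer cell markers, 3 of 7 sinusoidal endothelial markers and 3 of 7 stellate cell markers rose over penicillin chow, and 0 fell, where 6.43% of all genes were higher and 1.89% lower. In control mice limma called 0 of these markers, with 6 of 8, 5 of 7 and 1 of 7 at an unadjusted p under 0.05, as had 15.1% of all genes. For penicillin against control on chow limma also called 0. There 7 of 8, 3 of 7 and 4 of 7 had an unadjusted p under 0.05, as had 7.62% of all genes. In 6, 3 and 4 markers all penicillin chow mice lay below all control chow mice, as in 7.04% of all genes. The diet differences in penicillin mice are thus measured from a chow group with lower marker values. The mean of the macrophage list lay between 9.36 and 9.48 in control chow, 8.62 and 9.22 in penicillin chow, 9.81 and 9.95 in control high-fat and 9.32 and 9.99 in penicillin high-fat mice. The endothelial list lay between 8.31 and 8.47, 7.99 and 8.39, 8.72 and 8.80, and 8.58 and 8.84 in the same order. The stellate list lay between 8.28 and 8.36, 7.95 and 8.15, 8.32 and 8.56, and 8.35 and 8.76. Their part in the diet differences of Lpin2 and the other members was not tested. The hepatocyte list stayed between 13.80 and 14.01, with 1 of 9 markers lower in penicillin mice on high-fat diet, Cps1. Of 4 tested adipocyte markers Fabp4, which macrophages and endothelium also express, rose and Lipe fell in penicillin mice with the diet, and the list mean lay between 5.78 and 5.97 on all arrays. The mean of the skeletal muscle list lay between 5.13 and 5.94, highest in penicillin high-fat 3 and next in control high-fat 3 at 5.66. Lpin1 is also a muscle gene, and its relation to these markers was not tested.

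For penicillin on high-fat diet, the comparison in which Mogat1 rose, limma called 0 of the macrophage, endothelial, stellate, hepatocyte, adipocyte, muscle and enterocyte markers. Of these, 0 of 8 macrophage, 0 of 7 endothelial and 2 of 7 stellate markers had an unadjusted p under 0.05, as had 10.1% of all genes. So had 1 of 9 hepatocyte, 1 of 4 adipocyte, 0 of 3 muscle and 1 of 2 enterocyte markers. The stellate gene Col3a1 stood at 0.88 ± 0.17 (adjusted p = 0.067). The others were Col1a1 at 0.29, Cps1 at -0.33, Lipe at -0.41 and Fabp2 at 0.42. Whether these differences relate to that of Mogat1 was not tested. Of 5 tested pancreatic acinar markers 1 was called, Cela1, which fell by 1.33 ± 0.16 (adjusted p = 0.00389). Cela1 lay between 9.05 and 10.82 over the arrays, whereas the other 5 measured acinar markers lay between 3.23 and 6.18. The 2 tested enterocyte markers moved in opposite directions with the diet. Fabp2, an intestinal fatty acid binding protein gene, rose by 1.21 ± 0.16 in control mice (adjusted p = 0.00759). In penicillin mice it rose by 1.64 ± 0.16 (adjusted p = 0.000266). Mogat2, the other marker, stood at -0.43 ± 0.10 in control mice (adjusted p = 0.0741) and at -0.16 ± 0.10 in penicillin mice (adjusted p = 0.375). Its averaged fall is given above. The enterocyte genes Vil1 and Lct stayed between 3.96 and 4.53, below the filter level.

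For each member called in a comparison between groups, the 3 tested genes with the highest Pearson correlation over the 12 arrays were taken. They are those of the most similar pattern. Agpat3, called only in the average over treatments, was left out. For Mogat1 they were Lgals1 at 0.96, Pmpcb at 0.96 and the fatty acid transporter Cd36 at 0.96. For Lpin1 they were Ufsp2 at 0.97, Chaserr at 0.96 and Snap23 at 0.95. For Lpin2 they were Papss1 at 0.95, Ndufaf5 at 0.93 and Baiap2l1 at 0.93, and for Gpam they were Dhrs7b at 0.96, Tmem135 at 0.94 and Haus7 at 0.94. The arrays share the group differences, so these values describe a pattern over the 4 groups. No gene stood in more than 1 of these 4 sets.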

How the data were processed

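Liver RNA of 12 mice was hybridised to Affymetrix 3′ expression arrays. The authors deposited log2 expression values for 45101 probe sets, for which the submitters' processing notes name RMA and affy without a version. RMA gives all arrays a common distribution, so changes are relative to the bulk of genes; array medians lay between 5.52 and 5.59. Probe sets were named from the platform annotation, 34945 of them by 1 symbol. Per gene the probe set with the highest mean was kept, and genes above the 40th percentile (log2 level of 5) on at least 3 arrays were tested.

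Differences were fitted with limma (version 3.58.1, R 4.3.3) as 4 group means on 12 arrays, with eBayes, 8 residual degrees of freedom and Benjamini-Hochberg adjustment over 13788 genes, in 6 contrasts. The labels call the samples biological replicates; cage and litter are not given, so p-values reflect only the variation among these animals, part of which may be technical. The pipeline was tested on simulated data. Named genes are all members, the called genes of the wider list, and the 3 genes of most similar pattern per member called between groups. The members and lists were chosen with earlier results of these data known. The small number of arrays limits precision, with a median standard error of 0.10 between groups and 0.15 for the interaction. Alternatives covered the filter, probe set choice, normalization, variance model, weights, arrays included, replicate block, covariates, threshold and each array left out. The fit without the 3 arrays of low 18S signal was added after the arrays had been examined. Protein sequences were not used here.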

Additional observations from a re-analysis of the deposited data

How the results depend on the processing

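Of 1056 values of members below the threshold, recomputed under 25 settings, 58 turned sign without passing; every called member kept its direction in all settings run. Mogat1 kept both of its calls between groups, and Mogat1, Lpin1 and Lpin2 their averaged diet calls, in each setting. Of the 9 members, the count called for the diet in control mice went from 1 to 0 with trend and robust variance, with only the arrays of the groups compared and without the 3 arrays of low 18S signal, and to 2 with array weights. The count in penicillin mice went from 4 to 2 with the clock score as a covariate and without the low-18S arrays, and the averaged count from 5 to 3 with the clock score. With 1 array removed, leaving out each replicate in turn, the counts ranged from 0 to 1 in control mice, 1 to 5 in penicillin mice and 3 to 5 averaged; for penicillin they stayed at 0 on chow and 1 on high-fat diet, and for the interaction at 0.

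Of the wider pathway, the count for the diet in control mice went from 1 to 0 with cyclic loess, only the arrays compared, the replicate block and the clock score, to 4 with array weights and to 3 at an adjusted p under 0.10, and ranged from 0 to 2 with an array left out. In penicillin mice it went from 8 to 3 with only the arrays compared, 5 with the replicate block, 5 with the 18S signal as a covariate and 1 with the clock score, and ranged from 1 to 7 with an array left out; averaged, it went from 10 to 5 with the clock score and ranged from 7 to 12. It went from 0 to 1 for penicillin on high-fat diet with array weights, and on chow from 0 to 1 with the clock score and to 4 without the low-18S arrays. Fits without the low-18S arrays leave 1 penicillin chow mouse, which is assumed to vary like the other mice.

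Deviations of arrays of the same replicate number correlated between -0.23 and 0.17, and 2 of 12 arrays lay closest to one of their own number, so the numbers were not taken as pairs. With the replicate block the averaged diet effect on Agpat3 was 0.20 (adjusted p = 0.0512), the 1 member call it changed. Among called effects between groups, Lpin1 passed in 16 of 25 settings in control mice and 20 of 25 in penicillin mice, Lpin2 in 15 and Gpam in 19; averaged, Gpam passed in 13 of 24 and Agpat3 in 14. The setting with only the arrays compared was not run for the interaction and the average, which use all arrays, and Lpin3 had no value under the 60th percentile filter. Array data give no depth; the dim Lpin3 and Mogat1 are the members least able to show a change near background.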
